A study of Mus musculus with 6 samples.

Results

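Toll-like receptors are membrane proteins that bind molecules of bacteria, viruses and other microbes and start the innate immune response. The 10 receptor genes described here, Tlr1 to Tlr9 and Tlr13, were taken by gene symbol from tables of 23183 mouse genes. The rule uses no measured value, although earlier results of these data were known when the family was picked. RNA was sequenced from lung tissue of C57BL/6 mice in 6 libraries, 3 after saline and 3 after lipopolysaccharide (LPS), which per the treatment field was instilled into the trachea. The sources used here give no dose, time after instillation, age, sex or number of animals. No label says that each library came from its own animal, so the p-values reflect only how far these libraries differ, part of which may be technical. Titles and design text name wild-type mice in both groups, whereas the genotype field reads LCN2-/- for LPS 1 and LPS 2 and LCN4-/- for LPS 3. The transcript of Lcn2, the gene of the secreted iron-carrier-binding protein lipocalin-2, stood at log2 values of 13.60, 13.29 and 13.82 in LPS against 8.20, 11.28 and 10.11 in saline, which goes against the LCN2-/- entries. The table of LPS 3 stops before the receptor symbols, so each receptor has 3 saline and 2 LPS values, and the 2 LPS values given below are those of LPS 1 and LPS 2, in that order.

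Each Toll-like receptor has an outer horseshoe of leucine-rich repeats that meets the ligand and an inner TIR domain that recruits adaptor proteins. TLR1, TLR2, TLR4, TLR5 and TLR6 act mainly at the cell surface on lipids, lipopeptides and flagellin, while TLR3, TLR7, TLR8, TLR9 and TLR13 read nucleic acids inside endosomes. TLR4, with its partner MD-2 and the carrier CD14, is the receptor for LPS itself. The adaptor MyD88 serves every member except TLR3, which signals through TRIF, and the signal ends in NF-kB and interferon regulatory factors. In the lung, these receptors are known from macrophages, neutrophils, dendritic cells, B cells and epithelium.

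The deposited values are on a log2 scale that starts at 0, as the log2 of an expression value plus 1 would. Depth is unknown, and saline and LPS tables differ in how they were made at the low end: each saline table held 3869 exact zeros and 1505 to 1936 values above 0 but under 0.01, whereas the LPS libraries held 5117 to 6223 zeros and 11 to 24 such values. That difference follows the groups, so its effect on a gene cannot be told apart from that of treatment. Before the log, values over the 18699 genes present in every library summed to 467483 to 552368 in saline and to 854330 to 885427 in LPS. As a description across those genes, Pearson's r between libraries was 0.985 to 0.989 for pairs of saline libraries, 0.992 to 0.994 for pairs of LPS libraries and 0.925 to 0.970 for mixed pairs.

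Of the 10 receptors, 3 rose (Tlr2, Tlr6 and Tlr13), 2 fell (Tlr5 and Tlr9) and 5 did not pass the threshold (Tlr1, Tlr3, Tlr4, Tlr7 and Tlr8), at an adjusted p of 0.05 in limma's moderated test with Benjamini-Hochberg adjustment over all genes tested. Over the 13116 genes tested, 25.7% were higher and 24.3% lower in LPS, so that 3 and 2 of 10 receptors are close to the share found among genes in general. All 10 receptors passed the filter on low values, Tlr5 and Tlr9 through their saline values alone. Before the log, their LPS values were under 1, at 0.964 and 0.852 for Tlr5 and at 0.835 and 0.445 for Tlr9. The counts depend on the libraries and the filter: leaving out 1 library gave 1 to 5 higher (1 without LPS 1, 5 without LPS 2), and without the filter 0 were higher and 1, Tlr9, was lower. The median difference of the receptors was 0.46 on the log2 scale, against 0.02 over all genes tested. In whole tissue, fewer cells of a type and less RNA per cell cannot be told apart, and this holds for every difference given here. The 5 receptors that passed the threshold are those whose saline and LPS values did not overlap. Overlap and test draw on the same values, so neither is separate support for the other. The share of all genes tested without overlap was not counted.

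**Figure D1:**
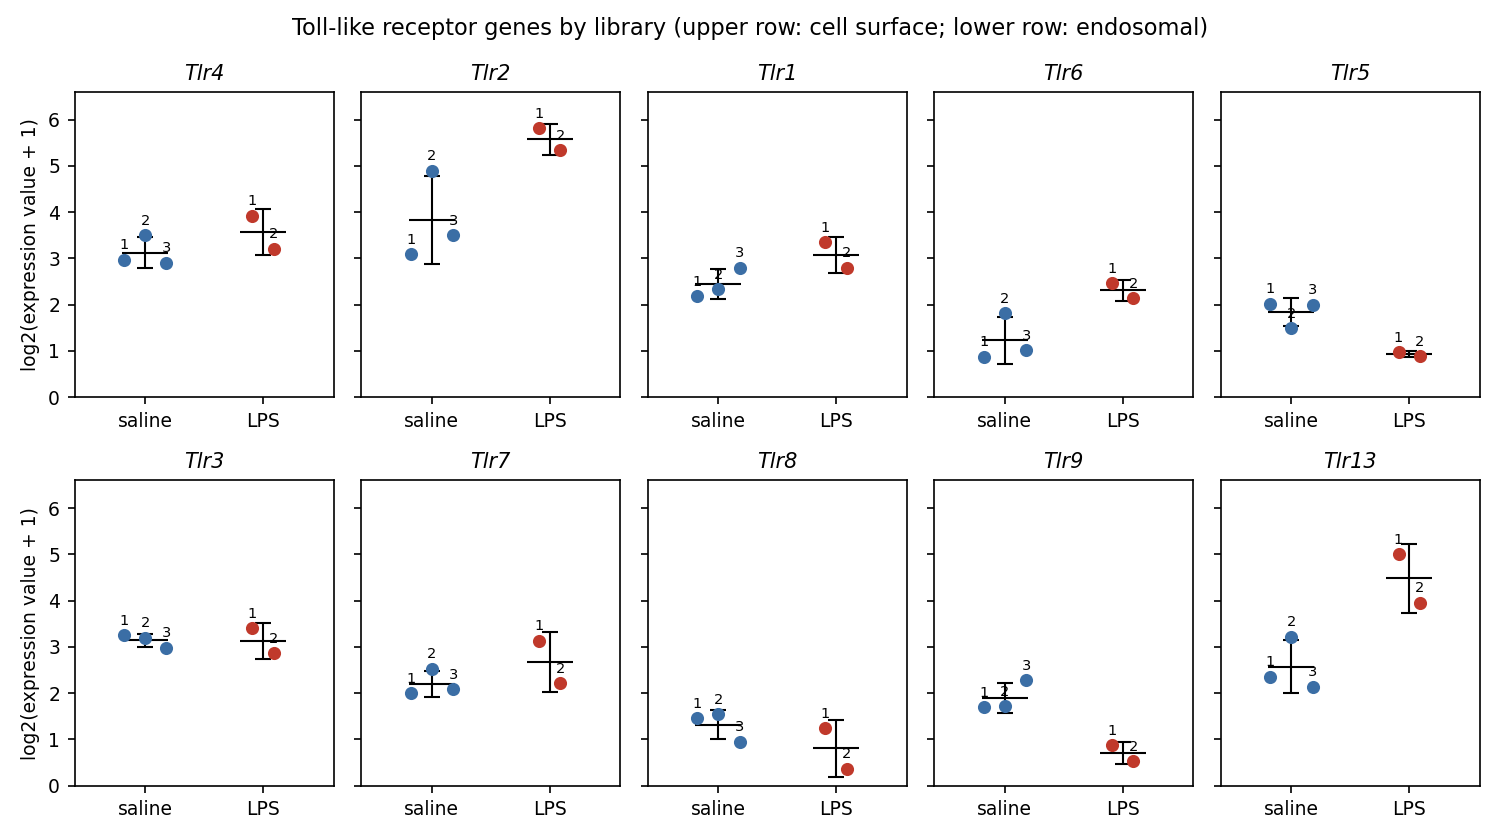
Deposited log2 value of each Toll-like receptor gene in every library that holds one, 3 saline and 2 LPS points per gene, with the group mean as a bar. Tlr2, Tlr6 and Tlr13 have both LPS points above all saline points, Tlr5 and Tlr9 have both below, and the other 5 genes overlap. The share of all genes tested without overlap was not counted.

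Among the surface receptors, Tlr4 (chromosome 4, 66827584 to 66930284, plus strand, mm10, a gene of 3 or 4 coding exons depending on the transcript) encodes the receptor for the instilled LPS. Its log2 values were 2.97, 3.51 and 2.90 in saline and 3.93 and 3.21 in LPS. LPS 1 was the highest library, but LPS 2 lay below saline 2. The mean was 3.13 ± 0.33 (SD, n = 3) in saline and 3.57 ± 0.50 (SD, n = 2) in LPS. The difference of 0.44 (SE 0.26, 95% interval -0.16 to 1.04) did not pass the threshold (adjusted p = 0.189, limma), and the interval leaves room for a small decrease as well as for a rise of 1.04.

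Tlr2 (chromosome 3, 83836272 to 83841767, minus strand, mm10, with its coding sequence in 1 exon) encodes the receptor for bacterial lipoproteins, which it binds as a pair with TLR1 or TLR6. Its log2 values were 3.09, 4.90 and 3.50 in saline and 5.81 and 5.34 in LPS. Both LPS libraries lay above every saline library, and saline 2 stood well above the other saline libraries. The mean rose from 3.83 ± 0.95 (SD, n = 3) to 5.58 ± 0.33 (SD, n = 2), a difference of 1.75 (SE 0.46, 95% interval 0.70 to 2.80; adjusted p = 0.0136, limma), and the mean value before the log was 3.05 times as high. The call rests on LPS 1: without it, the difference was 1.51 with an adjusted p of 0.0570, whereas without saline 2 it was 2.28 with an adjusted p of 0.000944.

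The 250 bases before the RefSeq start of Tlr2 (GRCm38.p6, chr3:83841609-83841858, minus strand) are shown because Tlr2 had the highest mean level of the family in both groups and the window holds a palindromic match to the NF-kB motif. They are written 5′ to 3′, and the capitals mark a pair of overlapping matches to GGNNTTNCC, one on each strand. These begin 172 and 171 bases before the start. RefSeq and GENCODE place the start differently, and the window lies partly inside the GENCODE gene model given above.
Tlr2 promoter: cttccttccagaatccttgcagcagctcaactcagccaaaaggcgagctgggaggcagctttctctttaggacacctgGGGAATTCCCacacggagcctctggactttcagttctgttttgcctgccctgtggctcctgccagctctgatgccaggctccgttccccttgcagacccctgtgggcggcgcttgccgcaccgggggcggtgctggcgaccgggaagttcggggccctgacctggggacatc
A match is a description of letters and was not measured as binding.

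Tlr1 and Tlr6 encode the partners with which TLR2 recognises triacylated and diacylated lipopeptides. They lie side by side on the minus strand of chromosome 5 (mm10), Tlr1 at 64924679 to 64933563 and Tlr6 at 64952031 to 64960097, 18467 bases apart, each with its coding sequence in 1 exon. Their coding sequences hold identical stretches: of all runs of 50 bases, 454 are common to both, which is 19.4% of those of Tlr1 and 19.2% of those of Tlr6. The longest identical run covers 229 bases, coding positions 1468 to 1696 of Tlr1 and 1507 to 1735 of Tlr6 counted from the first base of the start codon. Its first 100 bases are shown, in lower case and 5′ to 3′, because reads from them cannot be assigned to either gene by sequence alone.
Tlr1 and Tlr6 shared run: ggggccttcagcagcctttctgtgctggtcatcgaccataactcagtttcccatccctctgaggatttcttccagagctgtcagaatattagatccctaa
How the authors' counting treated such reads was not found in the labels or notes, so the values of both genes are uncertain to that extent.

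The log2 values of Tlr6 were 0.87, 1.81 and 1.02 in saline and 2.47 and 2.15 in LPS. Both LPS libraries lay above all saline libraries, and saline 2 was again the highest of its group. The mean rose from 1.23 ± 0.51 (SD, n = 3) to 2.31 ± 0.23 (SD, n = 2), a difference of 1.07 (SE 0.28, 95% interval 0.43 to 1.72; adjusted p = 0.0133, limma), and the mean value before the log was 2.74 times as high. Without LPS 1 the difference was 0.91 and no longer passed (adjusted p = 0.0654). The log2 values of Tlr1 were 2.18, 2.34 and 2.80 in saline and 3.36 and 2.80 in LPS. LPS 2 and saline 3 were nearly equal, so the groups overlapped. The means were 2.44 ± 0.32 (SD, n = 3) and 3.08 ± 0.40 (SD, n = 2), and the difference of 0.63 (SE 0.24, 95% interval 0.08 to 1.18) missed the threshold after adjustment (adjusted p = 0.0554, limma). Without saline 3, Tlr1 did pass (adjusted p = 0.0279), as it did without LPS 2 (adjusted p = 0.0365) and after quantile normalization (0.80, adjusted p = 0.0336). Within a library, Tlr1 exceeded Tlr6 by 1.31, 0.53 and 1.79 in saline and by 0.89 and 0.65 in LPS, and these differences overlapped between the groups.

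Tlr5 (chromosome 1, 182954788 to 182976044, plus strand, mm10) encodes the receptor for flagellin, the protein of bacterial flagella. Its log2 values were 2.02, 1.49 and 1.996 in saline and 0.97 and 0.89 in LPS. Every LPS value lay below every saline value. The mean fell from 1.84 ± 0.30 (SD, n = 3) to 0.93 ± 0.06 (SD, n = 2), a difference of -0.90 (SE 0.20, 95% interval -1.37 to -0.44; adjusted p = 0.00717, limma). Before the log, the saline mean was 2.88 times the LPS mean, and with a pseudocount of 0.1 the log2 difference was -1.40. Tlr5 passed the filter on low values through saline alone, and without that filter it missed the threshold (adjusted p = 0.0595, limma). The difference of Tlr5 thus had the opposite sign to those of the surface receptors Tlr2 and Tlr6. A gene kept through saline alone is more likely to be lower in LPS, so the sign of Tlr5 is a description only.

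Among the endosomal receptors, the largest difference was that of Tlr13 (chromosome X, 106143204 to 106160493, plus strand, mm10, 2 coding exons), which in mice encodes a receptor for bacterial ribosomal RNA. Its log2 values were 2.36, 3.22 and 2.14 in saline and 5.01 and 3.96 in LPS. Both LPS libraries exceeded all saline libraries. The mean rose from 2.57 ± 0.57 (SD, n = 3) to 4.48 ± 0.74 (SD, n = 2), a difference of 1.91 (SE 0.38, 95% interval 1.05 to 2.77; adjusted p = 0.00386, limma). Before the log, the LPS mean was 4.32 times the saline mean, and 2.75 times without LPS 1 or 5.89 times without LPS 2.

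Tlr9 (chromosome 9, 106222598 to 106226883, plus strand, mm10, 2 coding exons) encodes the receptor for unmethylated CpG DNA. Its log2 values were 1.70, 1.72 and 2.28 in saline and 0.88 and 0.53 in LPS. Every LPS value lay below every saline value. The mean fell from 1.90 ± 0.33 (SD, n = 3) to 0.70 ± 0.24 (SD, n = 2), a difference of -1.19 (SE 0.23, 95% interval -1.71 to -0.68; adjusted p = 0.00323, limma). Before the log, the saline mean was 4.37 times the LPS mean, and with a pseudocount of 0.1 the log2 difference was -1.98. Tlr9 also passed the filter on low values through saline alone, and without that filter its adjusted p was 0.0493 (limma). The differences of Tlr13 and Tlr9, both nucleic acid sensors of the endosome, thus had opposite signs. A gene kept through saline alone is more likely to be lower in LPS, so the sign of Tlr9 is a description only.

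Tlr3 (chromosome 8, 45395665 to 45411080, minus strand, mm10) encodes the receptor for double-stranded RNA. Its log2 values were 3.26, 3.20 and 2.98 in saline and 3.41 and 2.86 in LPS. The LPS values bracketed the saline values. The means were 3.14 ± 0.14 (SD, n = 3) and 3.14 ± 0.39 (SD, n = 2), and the difference was -0.01 (SE 0.20, 95% interval -0.47 to 0.45; adjusted p = 0.971, limma). An exon of the gene model Gm45542 overlaps Tlr3 on the opposite strand. Libraries were made with a directional kit, but whether the counting used strand was not found in the labels or notes, so the value of Tlr3 may include reads of that model.
Tlr3 had one of the promoter windows holding an NF-kB match although its level did not pass the threshold, and it is shown for comparison with Tlr2 (RefSeq, GRCm38.p6, chr8:45410381-45410630, minus strand, 5′ to 3′). The window lies wholly inside the GENCODE gene model given above, whose start is upstream of the RefSeq start. The capitals mark the match to GGNNTTNCC, which begins 210 bases before the RefSeq start.
Tlr3 promoter: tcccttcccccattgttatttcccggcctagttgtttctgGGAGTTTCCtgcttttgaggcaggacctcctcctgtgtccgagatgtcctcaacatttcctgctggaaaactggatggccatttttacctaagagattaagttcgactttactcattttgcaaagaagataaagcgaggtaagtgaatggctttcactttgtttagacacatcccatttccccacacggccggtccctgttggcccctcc

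Tlr7 and Tlr8, which encode receptors related to each other and known for sensing single-stranded RNA, lie 40599 bases apart on the minus strand of chromosome X (mm10), Tlr7 at 167304929 to 167330558 and Tlr8 at 167242696 to 167264329. Their coding sequences share 0 runs of 50 bases. The log2 values of Tlr7 were 1.998, 2.53 and 2.09 in saline and 3.14 and 2.22 in LPS, and LPS 2 lay inside the saline range. The difference of 0.47 (SE 0.28, 95% interval -0.17 to 1.12) did not pass (adjusted p = 0.194, limma). The log2 values of Tlr8 were 1.46, 1.54 and 0.95 in saline and 1.24 and 0.37 in LPS. Here LPS 1 lay inside the saline range and LPS 2 below it, and the difference of -0.52 (SE 0.29, 95% interval -1.17 to 0.14) did not pass either (adjusted p = 0.164, limma). Each crossed the threshold when 1 LPS library was left out, Tlr7 without LPS 2 (0.93, adjusted p = 0.0290) and Tlr8 without LPS 1 (-0.95, adjusted p = 0.0266). Within a library, Tlr7 exceeded Tlr8 by 0.54, 0.98 and 1.14 in saline and by 1.90 and 1.85 in LPS. These differences, which depend on the scaling between libraries through the pseudocount alone, did not overlap between the groups, and their means differed by 0.99, or by 1.61 with a pseudocount of 0.1 in place of 1.

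Both remaining mouse family members, Tlr11 and Tlr12, receptors for the profilin of Toxoplasma, lay below the filter on low values and were not tested. Tlr11 had log2 values of 0.53, 0.54 and 0.39 in saline and 0.07 and 0.17 in LPS. Tlr12 had log2 values of 0.91, 0.66 and 1.23 in saline and 0.27 and 0.28 in LPS. For both, every LPS value lay below every saline value. The difference between the tables described above concerns the very lowest values, and whether it reaches these levels was not tested.

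Low values multiplied by transcript length gathered in steps more than the values alone, with 13 to 21 genes in the fullest bin against 7 to 12, so the values before the log appear to be scaled by gene length and levels of different receptors are set side by side on that footing. In saline, the mean log2 levels ran in descending order through Tlr2, Tlr3, Tlr4, Tlr13, Tlr1, Tlr7, Tlr9, Tlr5, Tlr8 and Tlr6, from 3.83 down to 1.23. All 9 pairs of neighbours in that order overlapped between libraries. In LPS the order was Tlr2, Tlr13, Tlr4, Tlr3, Tlr1, Tlr7, Tlr6, Tlr5, Tlr8 and Tlr9, from 5.58 down to 0.70. There, 3 of 9 pairs of neighbours did not overlap, namely Tlr2 and Tlr13, Tlr13 and Tlr4, and Tlr6 and Tlr5, so in LPS the lowest levels, those of Tlr5, Tlr8 and Tlr9, stood apart from the rest.

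Summed before the log, the 10 receptors came to 41.5, 73.0 and 45.2 in saline and to 135 and 83.3 in LPS. Totals over the genes present in every library were also higher in LPS (854330 to 885427, against 467483 to 552368 in saline). The receptor sums are not corrected for this. Tlr2 made up 18.2%, 39.4% and 22.9% of the receptor sum in saline and 40.9% and 47.5% in LPS. Tlr13 made up 9.94%, 11.4% and 7.57% in saline and 23.1% and 17.5% in LPS. Together, Tlr2 and Tlr13 held most of the LPS sum. Tlr3 supplied 20.6%, 11.2% and 15.3% of the sum in saline and 7.13% and 7.52% in LPS. The share of Tlr4 was 16.5%, 14.2% and 14.4% in saline and 10.5% and 9.94% in LPS, so that the LPS receptor formed a smaller part of the family's RNA in both LPS libraries although its own level did not pass the test. Tlr9 took 5.40%, 3.14% and 8.53% of the sum in saline against 0.618% and 0.534% in LPS. Within a library, Tlr2 exceeded Tlr4 by 0.12, 1.39 and 0.60 on the log2 scale in saline and by 1.89 and 2.13 in LPS, without overlap, and the means of these differences were 1.30 apart.

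The direction of several receptors depends on how libraries are scaled. Setting every library to the same sum before the log moved the median difference of all genes tested to -0.68. With that scaling, Tlr13 still rose (1.19, adjusted p = 0.0165), Tlr2 was at 0.97 and Tlr6 at 0.53 without passing (adjusted p = 0.0655 and 0.123), and Tlr3 and Tlr8 joined Tlr5 and Tlr9 among the receptors that fell (Tlr3 at -0.73, adjusted p = 0.0153, and Tlr8 at -0.93, adjusted p = 0.0154). Of all genes tested, 6.08% were higher and 63.6% lower with that scaling, so that 4 of 10 receptors lower is under the general share. Tlr1, Tlr4 and Tlr7 changed sign, to -0.06, -0.29 and -0.19. Measured from the median of all genes, the differences moved less: that of Tlr2 was 1.73 as deposited and 1.65 with equal sums, that of Tlr13 1.89 and 1.86, that of Tlr4 0.42 and 0.39, and that of Tlr9 -1.21 and -0.99.

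**Figure D2:**
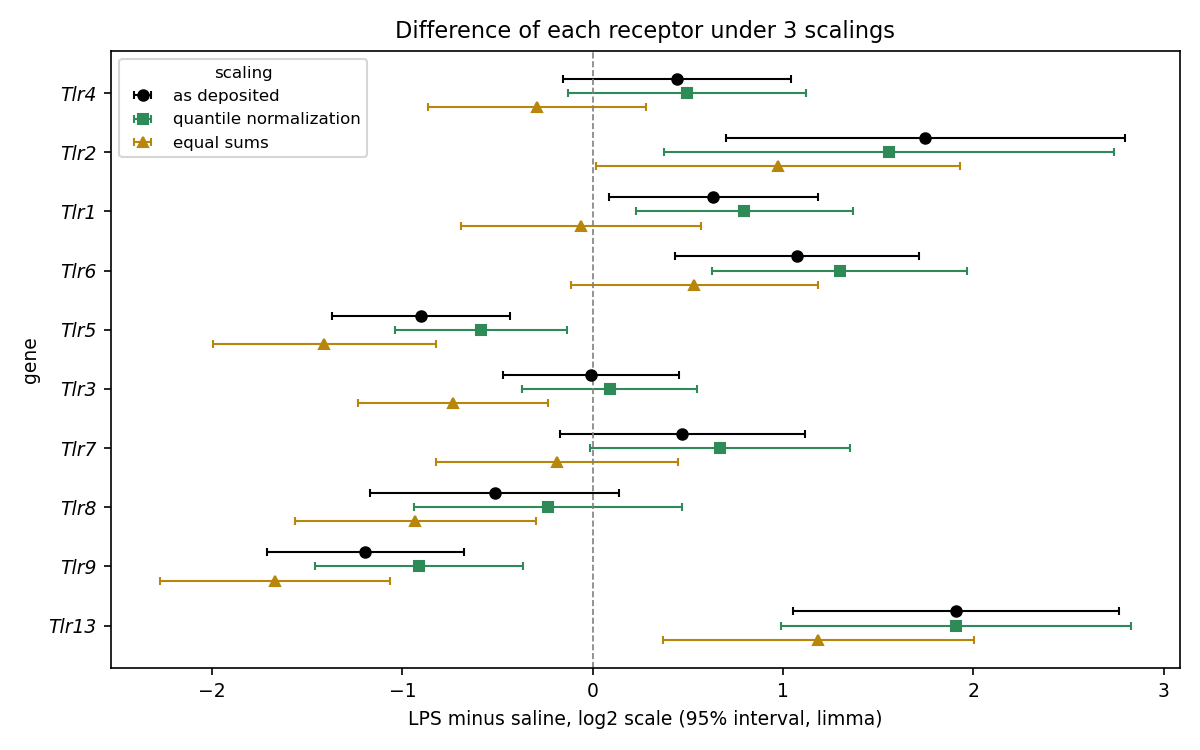
Difference of each receptor, LPS minus saline on the log2 scale with its 95% interval from limma, for the values as deposited, after quantile normalization and with equal sums before the log. Tlr2, Tlr6 and Tlr13 stay above 0 and Tlr5, Tlr8 and Tlr9 below 0 with each scaling, while Tlr1, Tlr3, Tlr4 and Tlr7 lie on both sides.

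Among markers of the cells known to carry these receptors, some lists differed between the groups mostly in one direction and others were mixed. Of the 12 monocyte and recruited macrophage markers, 11 were higher in LPS and 0 lower, and their sum before the log was 152, 297 and 187 in saline and 1152 and 617 in LPS. Of the 11 neutrophil markers tested, 9 were higher and 0 lower. The sum over 13 was 711, 2055 and 729 in saline and 25533 and 9822 in LPS, with the granule enzyme gene Mpo at 0 in LPS 2. S100a8 alone made up 47.3%, 52.2% and 49.8% of that sum in saline and 53.0% and 58.1% in LPS, and S100a9 most of the rest. In both list sums and in Tlr2, Tlr6 and Tlr13, LPS 1 was the highest library and LPS 2 came next. Saline 2 was the highest of the saline libraries there. LPS 1 and saline 2 were also the highest of their groups for Tlr4, Tlr7 and Tlr8, which did not pass the threshold. Of these, Tlr8 had a lower mean in LPS than in saline. LPS 1 lay above LPS 2 for every receptor, and how many of all genes share this order was not counted. In the opposite direction to both lists, all 8 B cell markers were lower, with a sum of 245, 230 and 367 in saline and 41.1 and 66.0 in LPS. Of 6 conventional dendritic cell markers tested, 5 were lower, with a sum of 31.8, 30.1 and 28.5 in saline and 9.30 and 15.9 in LPS. Of 11 alveolar macrophage markers, 2 were higher and 4 lower, with sums of 601 to 878 in saline and 932 to 939 in LPS. Most of the LPS sum of that list came from the 2 that were higher, Chil3 and Fabp5, and the 4 that were lower were Siglecf, Ear1, Pparg and Mrc1. Of 6 plasmacytoid dendritic cell markers tested, 2 were higher and 2 lower, and most of the LPS sum of that list came from Bst2, an interferon-induced gene. Among epithelial lists, the 8 alveolar type 2 markers summed to 19074 to 20391 in saline and 14767 to 15920 in LPS (1 higher, 3 lower). The 6 airway club and ciliated cell markers summed to 64342 to 102383 in saline and 151016 to 166107 in LPS (2 higher, 2 lower). Most of the type 2 sum came from Sftpc and most of the airway sum from Scgb1a1. Neither gene passed the threshold (adjusted p = 0.327 and 0.102, limma). None of the marker sums is corrected for the higher totals of the LPS libraries. The part of the listed cell types in the receptor differences was not tested.

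As a description chosen after the values were seen, each receptor was set against the monocyte and macrophage marker sum of its own library, which removes any scaling between libraries. Tlr2 amounted to 4.97%, 9.70% and 5.53% of that sum in saline and to 4.80% and 6.42% in LPS. Tlr13 amounted to 2.72%, 2.81% and 1.83% in saline and to 2.71% and 2.36% in LPS. For these and for Tlr6, the receptors that rose, the groups overlapped. For the other 7 receptors, both LPS libraries lay below all saline libraries, as they did for 90.8% of all genes tested against this higher LPS sum. Among the 7 was Tlr4, with 4.51%, 3.49% and 3.46% in saline and 1.23% and 1.34% in LPS. Against the neutrophil sum, which came mostly from S100a8 and S100a9, both LPS libraries lay below all saline libraries for 10 of 10 receptors and 98.2% of all genes tested. Against the endothelial sum, 4 receptors lay above, 2 below and 4 overlapped, beside 49.2% of all genes above and 19.8% below. Against the B cell sum, 8 receptors lay above and 2 overlapped, beside 93.3% of all genes above. Tlr9, one of those that overlapped, amounted to 0.915%, 0.998% and 1.05% in saline and to 2.03% and 0.675% in LPS, with LPS values on either side of the saline range.

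**Figure D3:**
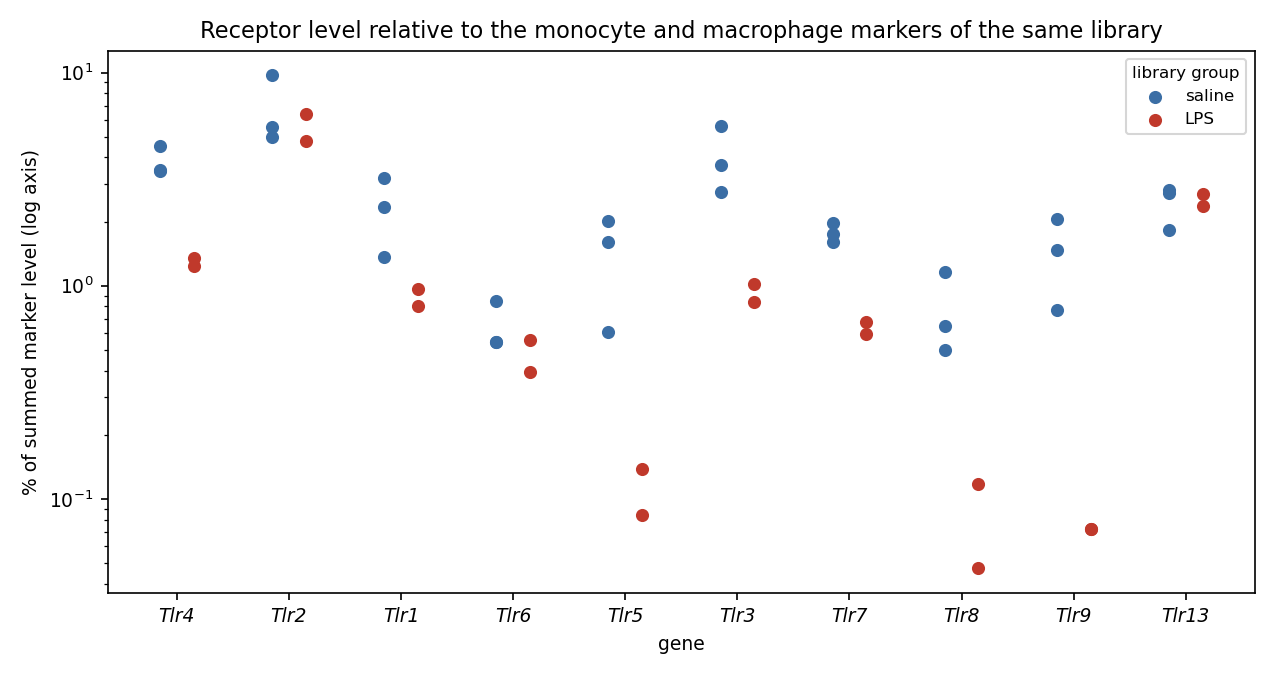
Level of each receptor before the log as a percentage of the summed monocyte and recruited macrophage markers of the same library, on a log axis, 3 saline and 2 LPS points per gene. Saline and LPS points overlap for Tlr2, Tlr6 and Tlr13, and both LPS points lie below all saline points for the other 7 receptors, as for 90.8% of all genes tested.

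Beyond the receptors, 56 genes of the pathway were tested in 7 lists: 31 were higher, 2 lower and 23 not past the threshold, beside the 25.7% and 24.3% of all genes. Their median difference was 0.52, against 0.02 over all genes tested. With equal sums before the log, 10 were higher and 19 lower, beside 798 and 8343 of all genes tested. With that scaling, 26 of the 56 differences changed sign, among them 15 of the 31 that were higher as deposited. Ly86, Ctss, Tbk1, Nfkb2, Irak2 and Tank kept their direction but no longer passed (adjusted p = 0.513, 0.0891, 0.588, 0.0674, 0.337 and 0.365, limma). Genes absent from the table of LPS 3 have 2 LPS values below, and the others have 3.

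The co-receptors, which hand ligands to the receptors, all passed the threshold, 4 higher and 2 lower. Cd14, the gene of the LPS carrier CD14, had log2 values of 4.60, 6.09 and 5.23 in saline and 9.02, 8.72 and 8.94 in LPS. All LPS values stood far above all saline values, and the difference was 3.59 (SE 0.32; adjusted p = 9.74e-05, limma). Ly96, the gene of the TLR4 partner MD-2, had 3.12, 3.89 and 3.02 in saline and 5.57, 4.89 and 4.63 in LPS, a difference of 1.68 (SE 0.29; adjusted p = 0.00154). Lbp, the gene of the serum protein that extracts LPS from bacterial membranes, rose by 0.57 (SE 0.17; adjusted p = 0.0185), but stood at -0.20 with equal sums. Among these genes of LPS recognition, Cd14 and Ly96 were higher with either scaling, Lbp as deposited, and Tlr4 itself did not pass. Tlr4 has 2 LPS values where the others have 3, and the difference between these genes was not tested. Cd180 and Ly86 encode the proteins of a TLR4-like complex best known from B cells. They moved apart, with Cd180 at 2.65, 2.82 and 3.36 in saline and 1.90, 1.27 and 1.39 in LPS (difference -1.42, SE 0.23; adjusted p = 0.00114) and Ly86 higher by 0.94 (SE 0.22; adjusted p = 0.00669). Cd36, a scavenger receptor that aids TLR2 with TLR6 and is also abundant in lung endothelium, fell by 1.52 (SE 0.25; adjusted p = 0.00134).

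Of the 6 genes for folding and trafficking of receptors, 0 passed in limma. Unc93b1, whose product carries the nucleic acid receptors to endosomes, had 5.13, 5.20 and 5.56 in saline and 6.02 and 5.67 in LPS, a difference of 0.55 (SE 0.21; unadjusted p = 0.0271, adjusted p = 0.0534, limma). The other 5 genes had unadjusted p-values of 0.0969 to 0.910. Of the 5 proteases that cleave endosomal receptors, 3 rose, led by Ctss, the gene of cathepsin S, with a difference of 1.28 (SE 0.27; adjusted p = 0.00402). The others were Ctsb, the gene of cathepsin B, at 0.73 and Lgmn, the gene of asparagine endopeptidase, at 0.71, and both changed sign with equal sums.

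Of the 5 adaptors tested, 2 rose. Myd88, the adaptor gene shared by nearly the whole family, had 4.55, 5.30 and 5.06 in saline and 6.88, 6.29 and 6.45 in LPS, a difference of 1.57 (SE 0.23; adjusted p = 0.00076). Tirap, which bridges MyD88 to TLR2 and TLR4, rose by 0.67 (SE 0.15; adjusted p = 0.00725), and stood at -0.05 with equal sums. On the other branch, Ticam1, the gene of TRIF, differed by 0.33 (SE 0.16; adjusted p = 0.106) and Ticam2, the gene of the TRIF bridging adaptor TRAM, by 0.10 (SE 0.22; adjusted p = 0.722), neither of which passed. The difference between the branches was not tested.

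Of the 16 signalling kinases and ubiquitin ligases, 10 rose and 0 fell. The largest differences were those of Ikbke, the gene of the interferon-linked kinase IKK-epsilon, at 3.14 (SE 0.31; adjusted p = 0.000155), and Map3k8, the gene of the kinase TPL2 upstream of ERK, at 2.04 (SE 0.24; adjusted p = 0.000285). Ikbke had 1.73, 3.04 and 2.49 in saline and 5.82, 5.73 and 5.12 in LPS. Tbk1, the gene of the kinase most like IKK-epsilon, rose by 0.89 (SE 0.18; adjusted p = 0.00412). The other 7 that rose were the IRAK kinase genes Irak2 (0.93) and Irak1 (0.61), the ubiquitin ligase genes Peli1 (0.67) and Traf6 (0.47), the IKK subunit genes Chuk (0.56) and Ikbkb (0.52), and Tab2 (0.51), whose product binds the kinase TAK1. With equal sums, Irak2 kept its sign without passing (0.17, adjusted p = 0.337, limma) and the other 6 of these turned.

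Of the 8 receptor-level inhibitors tested, 6 rose and 0 fell. Tnfaip3, the gene of the ubiquitin-editing inhibitor A20, had 2.79, 3.53 and 3.28 in saline and 7.17 and 6.27 in LPS, a difference of 3.52 (SE 0.30; adjusted p = 0.000129). Irak3, the gene of the inactive kinase IRAK-M that restrains signalling in macrophages, had 2.56, 3.20 and 2.44 in saline and 5.13, 4.56 and 4.52 in LPS, a difference of 1.998 (SE 0.24; adjusted p = 0.000297). Tollip, which binds IRAK proteins, was just past the threshold as deposited (0.46, SE 0.17, adjusted p = 0.0497) and at -0.32 with equal sums. Sigirr, an inhibitory member of the interleukin-1 receptor family, did not pass the threshold (-0.27, SE 0.15, adjusted p = 0.157). Tank, the gene of a TRAF-binding regulator, rose by 0.999, and stood at 0.22 with equal sums without passing (adjusted p = 0.365, limma). Ptpn6, the gene of the phosphatase SHP-1, and Tmed7, the gene of a trafficking protein, rose by 0.68 and 0.56, and turned to -0.11 and -0.25 with equal sums.

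Of the 10 transcription factors linked to the receptors, 6 rose and 0 fell. Irf7, the factor downstream of TLR7 and TLR9 and itself interferon-induced, had 3.24, 4.97 and 4.64 in saline and 8.43, 7.11 and 7.75 in LPS, a difference of 3.48 (SE 0.45; adjusted p = 0.000413). Irf5, which acts with MyD88, rose by 1.70 (SE 0.26; adjusted p = 0.000905), and Nfkb2, the gene of the p100 subunit of NF-kB, by 1.37 (SE 0.26; adjusted p = 0.00251). Spi1, which encodes the myeloid factor PU.1 and serves also as a sign of myeloid cells, rose by 1.70 (SE 0.33; adjusted p = 0.00378). As in the summed monocyte markers and in Tlr4, LPS 1 was highest and saline 2 the highest of its group. The values of Spi1 were 4.55, 5.37 and 5.21 in saline and 7.23 and 6.25 in LPS. Irf3, the factor activated through TRIF, and Rela, the gene of the NF-kB subunit p65, rose by 0.52 and 0.48, and turned to -0.25 and -0.30 with equal sums. The part of myeloid cell number in these pathway differences was not tested.

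**Figure D4:**
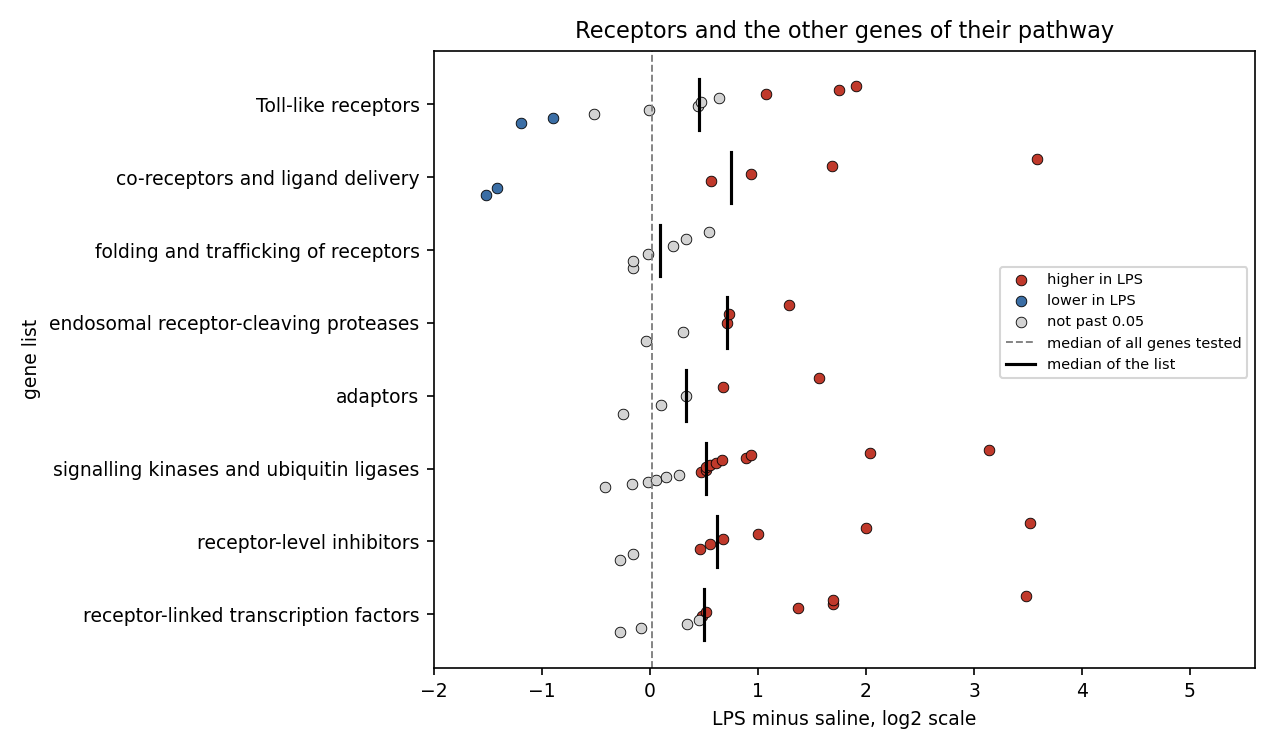
Difference, LPS minus saline on the log2 scale, of each tested Toll-like receptor and each tested gene of the 7 other pathway lists, colored by whether it passed an adjusted p of 0.05. The black bars mark list medians and the dashed line the median of all genes tested, 0.02. The receptors spread from -1.19 to 1.91, and 2 genes of the other lists, both co-receptors, are called lower.

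RefSeq promoter windows of 250 bases were found for 8 of the 10 receptors. Tlr4 and Tlr7 are named only. Each window was searched on both strands for NF-kB (GGNNTTNCC), AP-1 (TGANTCA), the interferon response element (GAAANNGAA) and PU.1 (GAGGAAG). NF-kB matches were found for 4 of the 8 receptors, Tlr2, Tlr3, Tlr5 and Tlr6, against 15.3% of all 27025 genes with a window. PU.1 matches were found for 3 of 8, Tlr1, Tlr9 and Tlr13, against 12.004% of genes, interferon element matches for 2 of 8, Tlr6 and Tlr8, against 8.18%, and an AP-1 match for 1 of 8, Tlr9, against 7.82%. The receptors with an NF-kB match include Tlr2 and Tlr6, which rose, Tlr5, which fell, and Tlr3, which did not pass the threshold.

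The genes whose log2 values most resembled those of Tlr2 over the 5 libraries were Rars, the gene of a transfer RNA synthetase (Pearson r = 0.9995), Arf1, the gene of a small GTPase of vesicle budding (0.998), and Mal, the gene of a membrane proteolipid and not of the adaptor encoded by Tirap (0.998). Such likeness was common, since 698 of 6557 genes compared had r above 0.95. For Tlr4 they were Tnfaip8l2, the gene of the immune regulator TIPE2 (0.996), Bclaf1, a nuclear RNA-processing factor gene (0.992), and Prcp, the gene of a lysosomal carboxypeptidase (0.988), and 43 of 6558 genes had r above 0.95. These values describe 5 libraries that share treatment and processing.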

How the data were processed

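Members and gene lists were chosen with earlier results of these data known. Lung RNA libraries were directional, per the labels' protocols, and reads were aligned with TopHat to mm10, per the submitters' processing notes. The annotation and the way genes were counted and scaled were not found in the sources used here. For every library, gene symbols and values were deposited by the authors on a log2 scale, as log2 of a value plus 1. This was read from the values, which start at 0, are not whole and reach 17.3. Depth is therefore unknown, and no count-based interval is given.

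Libraries were grouped by title and treatment. The table of LPS 3 ends early, with no value for 4484 of 23183 genes (19.3%), and none was imputed. limma 3.58.1 in R 4.3.3 (lmFit, eBayes with trend) was run on the deposited values, with no covariate, over 13116 genes whose value before the log reached 1 in at least 3 libraries, of which 2821 had 2 LPS values. P-values are two-sided and Benjamini-Hochberg adjusted over all of them (threshold 0.05), and the fit was tested on simulated data. The planned branch for log2 values was used. Differences on the log2(value + 1) scale understate the change of low genes.

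All members are named, as are the pathway genes past the threshold and those known as direct partners of a receptor. The genes most like Tlr2 and Tlr4 are the 3 with the highest Pearson r among tested genes with a mean above the median. Gene models and transcripts are from GENCODE M21 (mm10), promoters from RefSeq (GRCm38.p6). Protein sequences were not used here. Alternatives covered pseudocount, filter, scaling, single libraries, a replicate block, the variance trend and the threshold. The closing section gives their effect.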

Additional observations from a re-analysis of the deposited data

How the results depend on the processing

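Setting every library to equal sums before the log, which moved the median difference of all genes tested to -0.68, changed most: 1 receptor was higher and 4 lower, 10 other pathway genes higher and 19 lower, and 798 of all genes higher and 8343 lower. Of the 47 genes named and followed, signs turned for Tlr1 (-0.060), Tlr4 (-0.29), Tlr7 (-0.19), Lbp (-0.20), Unc93b1 (-0.25), Tirap (-0.049), Ticam1 (-0.37), Ticam2 (-0.41), Tollip (-0.32), Ctsb (-0.065), Lgmn (-0.083), Irak1 (-0.17), Traf6 (-0.26), Tab2 (-0.28), Chuk (-0.20), Ikbkb (-0.25), Peli1 (-0.11), Tmed7 (-0.25), Ptpn6 (-0.11), Rela (-0.30) and Irf3 (-0.25), and over all 56 pathway genes tested 26 turned. Quantile normalization left 20 pathway genes higher, made 4 receptors higher, since Tlr1 passed, and turned Tlr3 to 0.090. Without the filter on low values, 0 receptors were higher and 1 lower in limma. With a filter at a mean value of 5, 5 receptors were not tested, 0 receptors and 1 pathway gene were lower, and 1752 of all genes were lower. At an adjusted p of 0.01, 1 receptor was higher, with 19 pathway genes higher and, of all genes, 2033 higher and 2004 lower. Fits that each left out 1 library gave 1 to 5 receptors higher and 2 to 3 lower, 23 to 30 pathway genes higher, 2461 to 3660 of all genes higher and 2440 to 3436 lower, Tlr3 from -0.28 to 0.27 and Ticam2 from -0.18 to 0.39. In such fits with 1 LPS value, that library is taken to vary like the other groups. With saline 1 and 3 against LPS 1 and 2, chosen after seeing the data, Tlr3 stood at 0.016 and 3 receptors were higher and 2 lower. A pseudocount of 0.1 moved the change of Tlr7 minus Tlr8 to 1.61. Same-numbered libraries did not deviate together (correlations -0.23, -0.09 and -0.25), and no library correlated best with its own number. With the replicate number as a block, 3 receptors were higher (Tlr1 passed and Tlr6 did not) and 2 lower, 25 pathway genes were higher and 2 lower, and of all genes 2793 were higher and 2624 lower. Requiring a value in every library that holds receptor rows left out 0 genes. The remaining alternatives, pseudocount 0.5 and no variance trend, kept 3 receptors higher and 2 lower. Except where stated, the cause of these differences was not tested. Depth is unknown, so what it limits could not be assessed.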
